A study of Mus musculus with 35 samples.

Results

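Genome-wide peaks of H3K27ac, an acetylation of histone H3 found at active promoters and enhancers, were compared between DM and WT haematopoietic stem and progenitor cells (HSPC) of C57BL/6 mice. The labels leave DM unexplained, and it is taken here to mean mice that carry both Npm1c and Flt3-ITD. The members were the 2 DM and the 2 WT HSPC libraries of this mark, 4 of 35 samples in the series, of which 30 had peak files. In both groups marrow was flushed from femurs and tibias, red cells were lysed and lineage-positive cells were depleted, so each library holds bulk lineage-negative cells. The design text calls the 2 libraries of a group biological replicates. The labels do not say how the alleles were built or driven, how old the animals were or whether animals were pooled. Npm1c HSPC, Flt3-ITD HSPC and WT neutrophils, with 2 libraries each, are quoted where their peaks lie at the same places.

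H3K27ac is placed by acetyltransferases that transcription factors bring to regulatory DNA, so its peaks follow the promoters and enhancers that a cell type uses. Npm1c is a mutant nucleophosmin that moves from the nucleolus to the cytoplasm and is known for high HOX gene activity in acute myeloid leukaemia. Flt3-ITD is a receptor with an internal duplication that signals without its ligand, in part through STAT5. In normal marrow the erythroid and megakaryocytic route is led by GATA factors and the myeloid route by PU.1, C/EBP and IRF factors.

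The deposited lists hold peak positions with no score, so the depth behind each is unknown. There were 27371 and 21907 peaks in DM replicates 1 and 2, against 22060 and 21704 in WT replicates 1 and 2. They covered 20.3 and 13.5 Mb in DM, against 15.2 and 15.3 Mb in WT. Kit and Cd34, marker genes of HSPC, had a peak in all 4 libraries. In covered length DM replicate 1 lay above and DM replicate 2 below both WT libraries, and the DM libraries differed 1.51-fold from each other. In peak number DM replicate 2 lay between the WT libraries, and the DM libraries differed 1.25-fold. Mean covered length was 16.9 ± 4.84 Mb in DM and 15.2 ± 0.0579 Mb in WT (SD, n = 2 each; two-sided exact permutation p = 1.0, with 0.333 the smallest p that 2 against 2 libraries can give).

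Merging the peaks of the 4 libraries gave 33491 regions. Of these 3894 (11.6%) were gained, with a peak in both DM libraries and in neither WT library, and 3953 (11.8%) were lost, the reverse. All 4 libraries had a peak at 12570 regions (37.5%). The other 13074 had mixed patterns, 7522 of them a peak in DM replicate 1 alone and 629 in DM replicate 2 alone. Single regions were not tested. In bulk cells, fewer cells of a type and less H3K27ac per cell cannot be told apart.

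**Figure D1:**
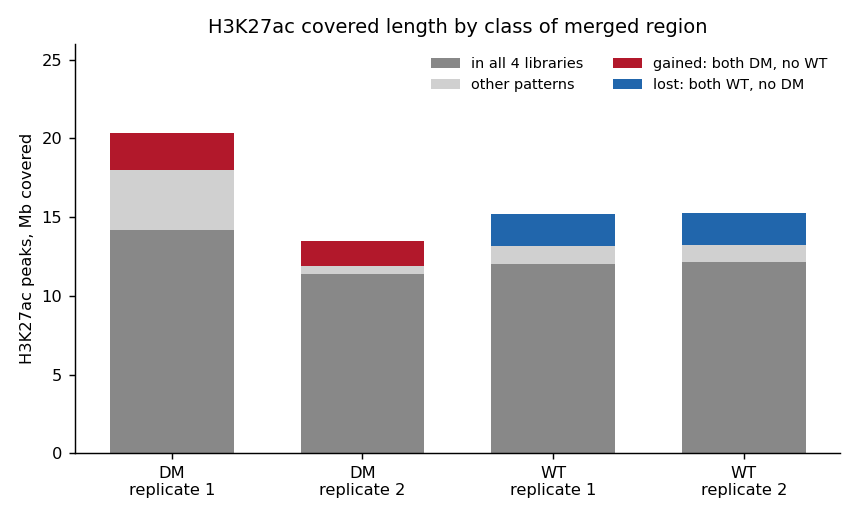
H3K27ac covered length in Mb (vertical axis) in each DM and WT library (horizontal axis), stacked by class of merged region. Gained regions hold 2.32 and 1.55 Mb of peak in the DM libraries and lost regions 2.02 Mb in each WT library, and DM replicate 1 stands highest at 20.3 Mb.

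Some gained and lost regions cover the start of a gene, and 3 promoters that lay wholly inside such a region are printed to show the sequence under the lost or gained peak. Each runs from 250 bases before to 50 after the start of the gene, 5′ to 3′ on the strand of the gene, from RefSeq on GRCm38.p6 (mm10). Of 35 erythroid list genes with a promoter entry, 7 had a promoter that overlapped a lost region, and 3 of these lay wholly inside it. The 2 of those that held the letters GATAA on either strand, the core bound by GATA factors, are shown with its complement TTATC in capitals. Ermap is an erythroid membrane protein (chr4:119189946-119190245, minus strand, letters at -67 from the start). Epb42 is a protein of the red cell membrane skeleton (chr2:121036828-121037127, minus strand, letters at -226).
Ermap: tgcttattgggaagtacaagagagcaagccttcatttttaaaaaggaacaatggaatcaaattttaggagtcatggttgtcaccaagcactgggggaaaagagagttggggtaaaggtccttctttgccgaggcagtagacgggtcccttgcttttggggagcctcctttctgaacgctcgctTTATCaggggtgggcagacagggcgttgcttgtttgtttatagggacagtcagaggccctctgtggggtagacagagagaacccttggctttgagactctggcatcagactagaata
Epb42: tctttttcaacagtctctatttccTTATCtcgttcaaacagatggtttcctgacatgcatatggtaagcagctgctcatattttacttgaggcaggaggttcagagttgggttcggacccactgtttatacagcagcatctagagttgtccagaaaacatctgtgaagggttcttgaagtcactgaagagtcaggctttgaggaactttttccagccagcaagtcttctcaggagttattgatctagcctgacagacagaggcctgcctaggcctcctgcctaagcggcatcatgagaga

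Of 15 list genes whose promoter overlapped a gained region, 6 lay wholly inside it. Among these 6, Ctss alone held the letters GAGGAAGT on either strand, a sequence that PU.1 binds. Ctss is the lysosomal protease cathepsin S (chr3:95526536-95526835, plus strand, letters at -2), and its promoter is shown with the complement of the letters in capitals. These promoters and letters were chosen after the values were seen, and a match describes the sequence without showing that a factor binds.
Ctss: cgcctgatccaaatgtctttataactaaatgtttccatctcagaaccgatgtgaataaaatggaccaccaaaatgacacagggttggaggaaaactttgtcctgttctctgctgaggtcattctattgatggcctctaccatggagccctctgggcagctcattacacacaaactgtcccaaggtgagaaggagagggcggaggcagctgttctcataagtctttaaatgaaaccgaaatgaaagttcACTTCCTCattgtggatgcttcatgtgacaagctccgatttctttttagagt

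Over all promoters that overlapped a region, in whole or in part, GATAA stood in 92 of 264 at lost regions (34.85%) and 64 of 393 at gained regions (16.3%). It stood in 13.9% of 8976 promoters at regions present in all 4 libraries, in 30.7% of 21697 that overlapped no region and in 25.4% of all 32851. Where only promoters wholly inside a region were counted, GATAA stood in 18 of 77 at lost regions (23.4%), 16 of 97 at gained regions (16.5%) and 12.9% at shared regions. GAGGAAGT stood in 31 promoters that overlapped a gained region (7.89%) and 8 that overlapped a lost one (3.03%), and in 3.20% of all. Of promoters wholly inside, it stood in 4 of 97 at gained regions (4.12%) and 4 of 77 at lost regions (5.19%), so its order was not the same. Median GC content was 59.7% in gained, 54.3% in lost, 62.3% in shared and 52.7% in all promoters, and the part of base composition in these shares was not tested.

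Most gained and lost regions lay away from gene starts. Median width was 529 bp for gained, 482 bp for lost, 309 bp for mixed and 1064 bp for shared regions. A shared region, with a peak in all 4 libraries, joins peaks of more libraries than a gained or lost one. These widths therefore depend in part on the class rule. Distance was taken to a start in a RefSeq table that holds 81.8% of genes, with chromosome 18 left out. A start lay within 1 kb of 18.5% of gained, 15.1% of lost, 17.97% of mixed and 70.0% of shared regions. The shares of gained and lost regions were thus close to that of mixed regions. The gained region with the most covered bases (chr17:83828664-83832889) lay in Haao, a gene of tryptophan breakdown, and held 4.23 and 2.94 kb in the DM libraries. Others among the 8 with the most lay in Gpr183 and Ubac2, Ror1, Irf5, Acoxl and Crtc3. The lost region with the most (chr6:55336388-55340560) lay in Aqp1, a water channel gene, and held 4.13 and 4.15 kb in the WT libraries. Next came regions in Lmo2, Ermap, Zfpm1, Dach1, Acmsd, Phyhip and Col5a1.

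Coverage per gene was the kb of H3K27ac peak within the gene span and 10 kb beyond either end. Of 13637 genes tested, 947 rose (6.94%) and 823 fell (6.04%) in DM (limma, Benjamini-Hochberg adjusted p under 0.05). The median change of all genes was 0.02 on the scale of log2(covered bp + 500), on which all log2 changes below are given with their SE. After median centring, 1552 genes rose (11.4%) and 1523 fell (11.2%), and 923 rises and 819 falls were called both ways. Neighbouring windows overlap, and the rises lay in 751 and the falls in 641 separate stretches. At 196 of the genes that fell neither DM library had a peak, and at 302 of those that rose neither WT library had one. Over all 13637 genes tested, neither DM library had a peak at 981 and neither WT library at 1450. Calls were fewest when a WT library was left out: 0.631% rose and 0.939% fell without WT replicate 1, and 0.99% and 1.2% without WT replicate 2. Without DM replicate 1, 3.6% rose and 10.9% fell, and without DM replicate 2, 16.0% and 3.91%. All 4 of these fits called 79 of the rises and 119 of the falls.

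**Figure D2:**
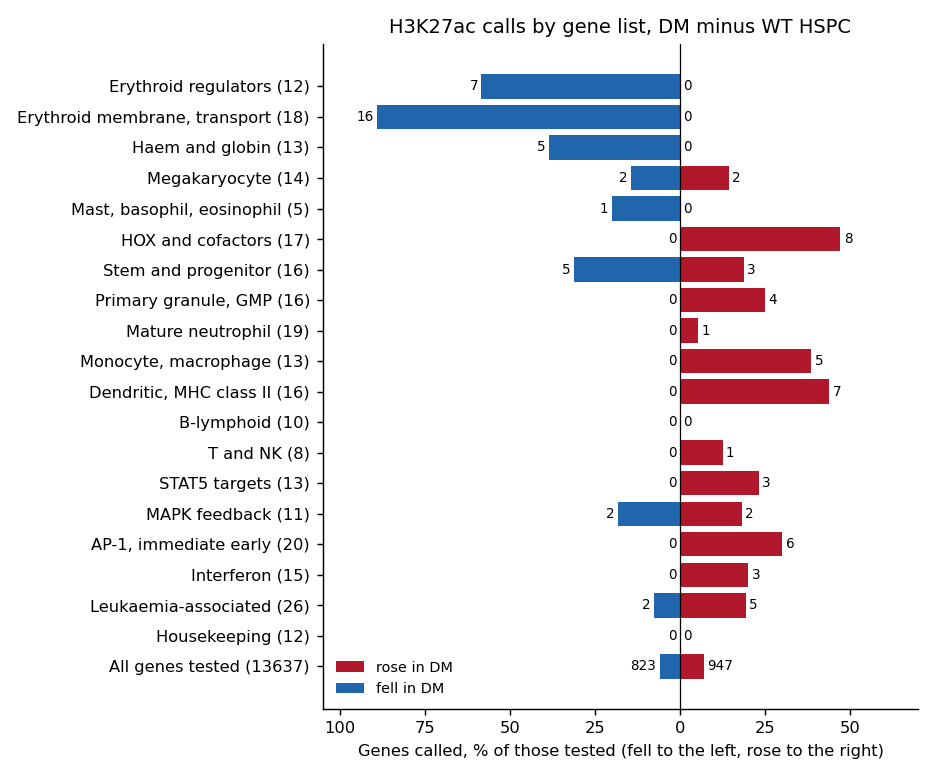
Share of tested genes called for H3K27ac in DM minus WT (horizontal axis, %) by gene list. The number tested stands in brackets and the count of genes at each bar. Red bars to the right rose in DM and blue bars to the left fell. The list of other-tissue genes and the list of Npm1 and Flt3 are not drawn. The 3 erythroid lists hold 7, 16 and 5 falls and no rise, the HOX, monocyte and dendritic lists hold 8, 5 and 7 rises and no fall, and all genes tested are the lowest bar.

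Erythroid regulators fell in part in DM and none rose. Of 12 tested, 7 fell and 0 rose, with a median log2 change of -1.15 against 0.02 for all genes. Gfi1b, a repressor needed to form red cells and platelets (chr2:28609450-28621982), had 0 and 0 kb in DM, against 7.59 and 8.19 kb in WT (limma adjusted p = 0.00133). All 10 merged regions in its window were lost, and each had a peak in both Npm1c libraries. Zfpm1, which encodes a cofactor of GATA factors, had 1.16 and 0.509 kb in DM, against 12.6 and 13.4 kb in WT (log2 change -3.38 ± 0.41; limma adjusted p = 0.00407), and 12 regions of its window were lost. For both genes the DM values lay far below the WT values.

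Gata1, the master factor of red cells, had 0 and 0 kb in DM, against 1.61 and 1.40 kb in WT (limma adjusted p = 0.00438). Tal1, its partner on erythroid enhancers, had 1.73 and 1.15 kb in DM, against 6.96 and 6.75 kb in WT (log2 change -1.94 ± 0.17; limma adjusted p = 0.00161). Lmo2, the bridge between these factors, had 2.69 and 2.31 kb in DM, against 6.89 and 6.54 kb in WT (log2 change -1.27 ± 0.14; limma adjusted p = 0.00338). Part of the mark stayed at each of the last 2 genes. At Lmo2 the region chr2:103957138-103960734 was lost, while chr2:103968763-103971971 held 2473 and 2308 bp in DM, against 3167 and 2963 bp in WT. The region at the start of Tal1 held 1734 and 808 bp in DM, against 4372 and 4259 bp in WT. Klf1, a red cell factor, had 1.59 and 1.46 kb in DM, against 3.41 and 3.70 kb in WT (limma adjusted p = 0.0103), and Epor, the erythropoietin receptor gene, fell too (log2 change -1.16 ± 0.23). Bcl11a, Nfe2, Tfrc, Ldb1 and Kdm1a did not pass, with log2 changes of -1.13 to -0.15. Falls in this list numbered 4 without WT replicate 1.

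Nearly all red cell membrane and transport genes fell. Of 18 tested, 16 fell and 0 rose, with a median log2 change of -2.30. At all 18 both DM libraries lay below both WT libraries, as they did at 23.4% of all genes tested. Their windows summed to 9.69 and 6.74 kb in DM, against 60.9 and 59.7 kb in WT. The same sum was 97.5 and 64.5 kb in Npm1c and 34.7 and 48.9 kb in Flt3-ITD cells. At 9 of the 18 genes neither DM library had a peak, as at 981 of all 13637 genes tested. Falls numbered 7 without WT replicate 1 and 8 without WT replicate 2.

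Car2, a carbonic anhydrase gene (chr3:14886269-14900770), had 0.272 and 0.257 kb in DM, against 9.81 and 8.85 kb in WT (log2 change -3.68 ± 0.14; limma adjusted p = 9.87e-05). Car1, a related enzyme gene, had 0 and 0 kb in DM, against 2.25 and 2.21 kb in WT (limma adjusted p = 0.000551). Aqp1 had 0 and 0 kb in DM, against 5.15 and 5.53 kb in WT (limma adjusted p = 0.000254). These 3 calls stood whichever of the 4 libraries was left out. Tspan33, a tetraspanin gene of erythroid precursors, had 0.477 and 0.493 kb in DM, against 5.09 and 5.57 kb in WT (log2 change -2.56 ± 0.25; limma adjusted p = 0.00203). Ank1, whose product ties the red cell membrane to its skeleton, had 0.685 and 0.338 kb in DM, against 5.97 and 5.60 kb in WT (log2 change -2.66 ± 0.37; limma adjusted p = 0.00631), but was not called without WT replicate 1 or without WT replicate 2. Rhag, an ammonium channel gene, had 0 and 0 kb in DM, against 2.32 and 2.12 kb in WT (limma adjusted p = 0.000551). Kel, the gene of the Kell blood group peptidase, had 0 and 0 kb in DM, against 2.18 and 1.76 kb in WT (limma adjusted p = 0.00624). At Ermap, with 0.996 and 1.04 kb in DM, against 3.98 and 3.75 kb in WT (log2 change -1.52 ± 0.11; limma adjusted p = 0.000939), the promoter region was lost while 2 flanking regions had a peak in all 4 libraries. Epb41, a membrane skeleton gene, did not pass, with 3.33 and 2.01 kb in DM and 4.98 and 5.11 kb in WT (log2 change -0.84 ± 0.24; limma adjusted p = 0.0627).

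**Figure D3:**
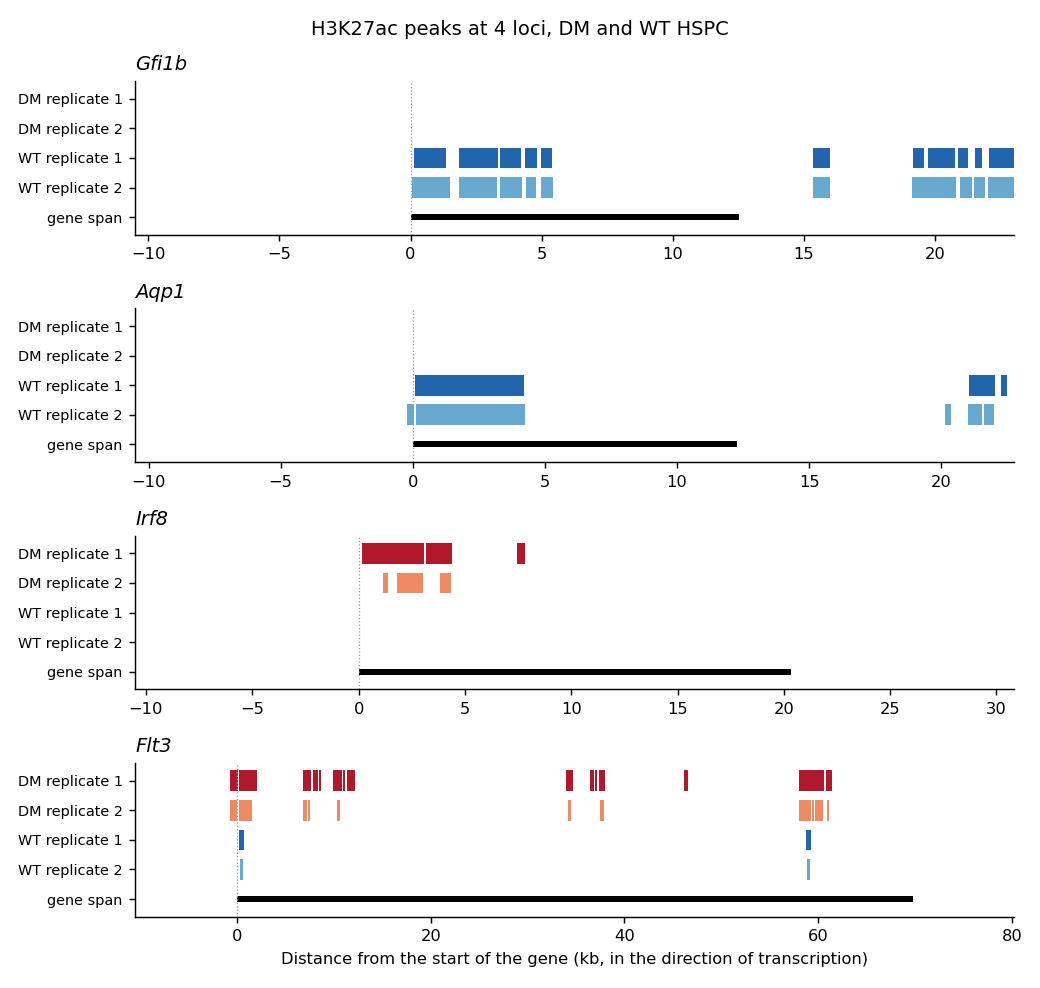
H3K27ac peaks at Gfi1b, Aqp1, Irf8 and Flt3 by distance from the start of the gene in kb, in the direction of transcription (horizontal axis), with a row for each DM and WT library and the gene span in black. Gfi1b and Aqp1 have WT peaks and no DM peak, Irf8 has DM peaks and no WT peak, and Flt3 has a peak at its start and one far inside the gene in all 4 libraries, with others in DM only.

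Of 17 haem synthesis and globin genes 13 were tested, and both alpha globin genes were not. Of the 13, 5 fell, 0 rose and 8 did not pass, with a median log2 change of -0.78. Fech, the last enzyme of haem synthesis, had 1.04 and 0.554 kb in DM, against 3.07 and 3.71 kb in WT (log2 change -1.60 ± 0.35; limma adjusted p = 0.0272). Alad, an early enzyme, had 2.32 and 2.54 kb in DM, against 5.79 and 5.39 kb in WT (log2 change -1.06 ± 0.16; limma adjusted p = 0.00775). Hebp1, Cpox and Abcb10 fell too. Ppox, a late enzyme, had 3.92 and 3.20 kb in DM and 3.40 and 3.06 kb in WT (log2 change 0.12 ± 0.13; limma adjusted p = 0.611), with overlapping groups. No gene of this list was called without WT replicate 1 or without WT replicate 2.

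Megakaryocyte genes moved both ways, with 2 rises and 2 falls in 14. Gp9, a platelet receptor subunit gene, had 0 and 0 kb in DM, against 2.13 and 3.24 kb in WT (limma adjusted p = 0.0128). Vwf, the gene of a platelet adhesion protein, had 2.18 and 1.52 kb in DM, against 3.67 and 3.26 kb in WT (log2 change -0.77 ± 0.18; limma adjusted p = 0.0314). Plek, a kinase substrate gene of platelets and leukocytes, had 7.26 and 2.96 kb in DM, against 1.53 and 1.31 kb in WT (log2 change 1.43 ± 0.33; limma adjusted p = 0.0319). Itgb3, an integrin chain gene, rose too (log2 change 1.65 ± 0.37). None of these 4 was called without WT replicate 1 or without WT replicate 2. Pf4, Ppbp and Gp1bb, further platelet genes, had no peak in the 4 libraries.

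H3K27ac was higher in DM over the HOX genes of the A cluster, which set positional and progenitor identity. Over the Hoxa cluster counted once (chr6:52155367-52245810), H3K27ac covered 20.8 and 15.3 kb in DM, against 2.05 and 2.39 kb in WT. Npm1c cells had 23.5 and 23.8 kb and Flt3-ITD cells 4.83 and 5.03 kb. The cluster carried the other marks in both groups. Every deposited H3K4me1 and H3K4me3 peak is 1000 bp wide, so kb of these marks count peaks of fixed width and not the extent of the mark. H3K4me1 covered 15.4 and 16.4 kb in DM, against 15.1 and 14.0 kb in WT, and H3K4me3 16.0 and 14.8 kb in DM, against 15.0 and 15.0 kb in WT.

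Of 17 HOX and cofactor genes tested, 8 rose and 0 fell, with a median log2 change of 1.04. Hoxa9, a factor of progenitor self-renewal, had 16.9 and 12.6 kb in DM, against 1.47 and 1.68 kb in WT (log2 change 2.87 ± 0.14; limma adjusted p = 0.000214). Meis1, the gene of its DNA-binding partner, had 4.19 and 2.78 kb in DM, against 0.263 and 0.709 kb in WT (log2 change 2.03 ± 0.33; limma adjusted p = 0.0107), and 7.47 and 10.7 kb in Npm1c cells. At both genes the DM values lay above the WT values. The other rises were Hoxa3, Hoxa5, Hoxa6, Hoxa7, Hoxa10 and Hoxa11, whose windows overlap. The 7 Hoxa calls stood whichever library was left out, and Meis1 was not called without WT replicate 1. Hoxb3 and Hoxb4 had the same 1.19 and 0.825 kb in DM and 0.501 and 0.49 kb in WT and did not pass (limma adjusted p = 0.189 and 0.188). Pbx3, a further partner gene, did not pass either.

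**Figure D4:**
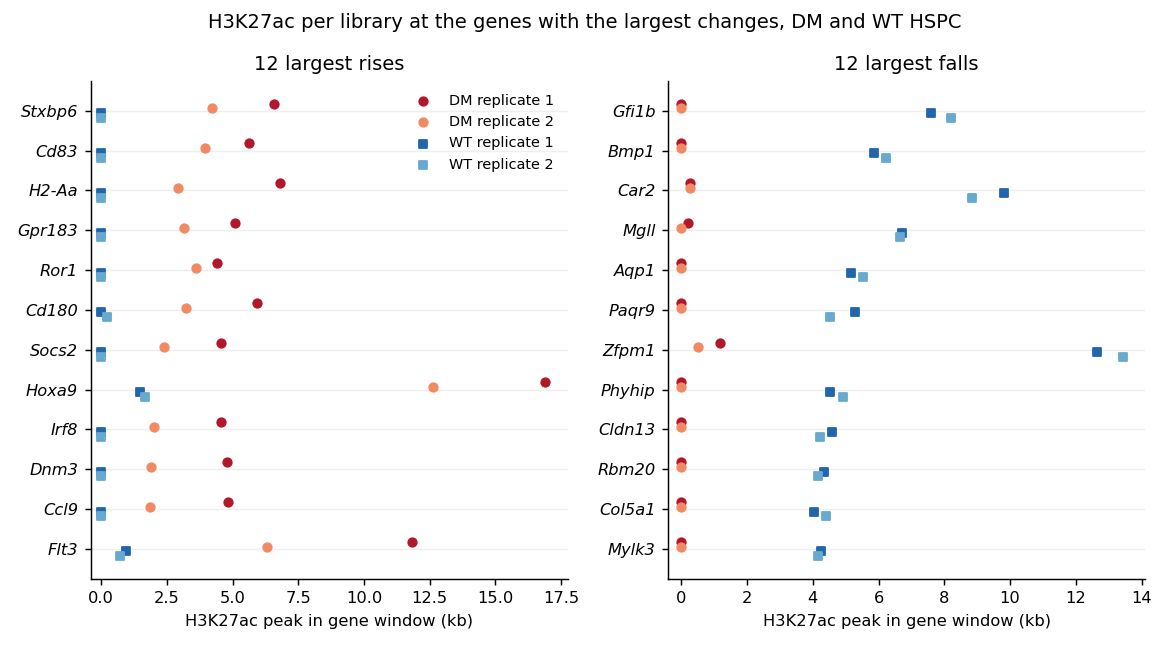
H3K27ac peak in the gene window in kb (horizontal axis) at the 12 genes with the largest rises (left) and the 12 with the largest falls (right); circles are DM libraries and squares WT libraries, 1 point a library. At the falls the DM circles lie between 0 and 1.16 kb, and at the rises DM replicate 1 lies right of DM replicate 2 and both lie right of the WT squares.

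Stem and progenitor genes moved both ways, with 3 rises and 5 falls in 16. Flt3, the growth factor receptor gene altered in Flt3-ITD (chr5:147330741-147400489), had 11.8 and 6.33 kb in DM, against 0.942 and 0.718 kb in WT (log2 change 2.79 ± 0.26; limma adjusted p = 0.00186). Flt3-ITD cells had 5.38 and 4.30 kb and Npm1c cells 3.84 and 4.63 kb. The region at its start held 1870 and 1353 bp in DM, against 498 and 387 bp in WT, and 6 regions of the window were gained. Erg, a stem cell factor gene, had 17.7 and 9.07 kb in DM, against 5.27 and 5.00 kb in WT (log2 change 1.23 ± 0.31; limma adjusted p = 0.042), a call that stood in 1 of the 4 fits that left out a library.

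Trib2, a pseudokinase gene, had 0 and 0 kb in DM, against 3.28 and 3.22 kb in WT (limma adjusted p = 0.000135). Prdm16, a gene of stem cell maintenance, had 0 and 0 kb in DM, against 1.91 and 1.68 kb in WT (limma adjusted p = 0.00348). Gata2, a factor of stem and mast cells, had 0 and 0 kb in DM, against 1.51 and 1.26 kb in WT (limma adjusted p = 0.0481), and 8.46 and 8.47 kb in Npm1c cells. The Trib2 and Prdm16 calls stood whichever library was left out, and the Gata2 call ended with any one. Kit, the stem cell factor receptor gene, had 0.353 and 0.578 kb in DM, against 1.16 and 1.21 kb in WT (log2 change -0.81 ± 0.19; limma adjusted p = 0.032), and Mllt3, a chromatin factor gene, fell too. Neither Kit nor Mllt3 was called without WT replicate 1 or without WT replicate 2. Runx1, a factor of definitive blood formation, had 20.9 and 12.1 kb in DM and 8.52 and 8.23 kb in WT (log2 change 0.89 ± 0.28; limma adjusted p = 0.0857). Npm1 had 1.5 and 0.824 kb in DM and 1.24 and 1.13 kb in WT (log2 change -0.05 ± 0.20; limma adjusted p = 0.941), and coverage at Npm1 or Flt3 checks no genotype.

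Dendritic cell and MHC class II genes, a single list, rose in part. Of 16 tested, 7 rose and 0 fell, with a median log2 change of 1.04, and at 9 of the 16 both DM libraries lay above both WT libraries, as at 29.9% of all genes tested. H2-Aa, the gene of a class II chain (chr17:34282744-34287823), had 6.79 and 2.93 kb in DM, against 0 and 0 kb in WT (limma adjusted p = 0.00417). H2-Ab1, the gene of its partner chain, had 5.64 and 3.83 kb in DM, against 0.398 and 0.322 kb in WT (log2 change 2.59 ± 0.21; limma adjusted p = 0.00109). Cd74, the class II chaperone gene, had 5.46 and 4.37 kb in DM, against 0.36 and 0.236 kb in WT (log2 change 2.76 ± 0.40; limma adjusted p = 0.00737). H2-Eb1, a further class II chain gene, rose as well, with 3.19 and 0.857 kb in DM, against 0 and 0 kb in WT (limma adjusted p = 0.0314). The calls at H2-Aa and H2-Ab1 stood whichever library was left out, that at Cd74 in 2 of the 4 fits and that at H2-Eb1 in 1.

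Irf8, a factor of monocyte and dendritic cell fate (chr8:120736358-120756694), had 4.56 and 2.02 kb in DM, against 0 and 0 kb in WT (limma adjusted p = 0.00223). Flt3-ITD cells had 3.74 and 3.36 kb there and Npm1c cells 0.257 and 0.26 kb. Tcf4, a factor of plasmacytoid dendritic cells, had 14.2 and 7.72 kb in DM, against 4.37 and 3.25 kb in WT (log2 change 1.36 ± 0.26; limma adjusted p = 0.0171). Batf3, Zbtb46, Xcr1 and Clec9a, genes of conventional dendritic cells, did not pass, and Zbtb46 was lower in both DM libraries (4.77 and 2.70 kb in DM and 6.34 and 6.82 kb in WT). Rises in the list numbered 4 without WT replicate 1 or without WT replicate 2.

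Of the 12 largest rises, 7 were in no list. Cd83, a marker gene of mature dendritic cells, had 5.61 and 3.94 kb in DM, against 0 and 0 kb in WT (limma adjusted p = 0.00106). Gpr183, an oxysterol receptor gene of immune cell migration, had 5.09 and 3.15 kb in DM, against 0 and 0 kb in WT (limma adjusted p = 0.00274). Stxbp6, a gene of vesicle fusion, had 6.57 and 4.22 kb in DM, against 0 and 0 kb in WT (limma adjusted p = 0.00417). Ror1, a receptor kinase gene, had 4.40 and 3.61 kb in DM, against 0 and 0 kb in WT (limma adjusted p = 0.000686). None of these 4 had a WT peak, and their calls stood whichever library was left out. Dnm3, Ccl9 and Cd180 rose too, the last 2 in 2 and 1 of the 4 fits that left out a library.

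Myeloid genes rose in part. Of 13 monocyte and macrophage genes 5 rose and 0 fell (median log2 change 1.14), and of 16 primary granule and granulocyte-monocyte progenitor genes 4 rose and 0 fell (0.42). Csf1r, the macrophage growth factor receptor gene, had 4.05 and 2.26 kb in DM, against 0.966 and 0.445 kb in WT (log2 change 1.59 ± 0.38; limma adjusted p = 0.0343). Klf4, a monocyte factor gene, had 3.05 and 2.41 kb in DM, against 0.708 and 0.617 kb in WT (log2 change 1.47 ± 0.31; limma adjusted p = 0.0243). Csf3r, the neutrophil growth factor receptor gene, had 3.62 and 2.65 kb in DM, against 1.69 and 1.75 kb in WT (log2 change 0.70 ± 0.15; limma adjusted p = 0.0233). In all 3 the DM values lay above the WT values. Cd14, Cd68, Nr4a1 and Cd33 rose too. Without WT replicate 1 none of the 13 monocyte genes was called, and without WT replicate 2 only 1. Of the 16 granule and progenitor genes 1 rose without WT replicate 1, 1 without WT replicate 2 and 6 without DM replicate 2.

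Spi1, which encodes PU.1, had 8.56 and 6.28 kb in DM and 4.03 and 3.95 kb in WT (log2 change 0.80 ± 0.22; limma adjusted p = 0.0537) and was called after centring (log2 change 0.77; limma adjusted p = 0.0116). Mpo, the granule peroxidase gene, had 3.85 and 1.66 kb in DM and 2.99 and 2.98 kb in WT (log2 change -0.19 ± 0.30; limma adjusted p = 0.761). Ctss had 3.58 and 1.23 kb in DM and 0.472 and 0.686 kb in WT (log2 change 1.30 ± 0.53; limma adjusted p = 0.161), and F13a1, a coagulation factor gene of monocytes, had 1.90 and 0.203 kb in DM and 0 and 0 kb in WT (limma adjusted p = 0.245). At the last 3 genes DM replicate 2 was well below DM replicate 1.

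Lists of more mature or other cells were set beside the shares of all genes, of which 6.94% rose and 6.04% fell. Mature neutrophil genes summed to 9.51 and 5.71 kb in DM, against 6.32 and 5.74 kb in WT, while WT neutrophils had 60.1 and 61.2 kb; 1 of 19 rose (Il1b), and 10 had no peak in the 4 libraries. B-lymphoid genes summed to 7.95 and 5.18 kb in DM, against 5.85 and 4.74 kb in WT, with no call in 10. Among 8 T and NK cell genes Il2rb rose, and among 5 mast, basophil and eosinophil genes Gata2 fell. None of 12 housekeeping genes was called, and Rpl13a fell after centring (log2 change -0.57). Of 3 genes of other tissues with peaks, Gfap fell.

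Signalling lists were mixed. Of 13 STAT5 target genes 3 rose and 0 fell (median log2 change 0.25). Socs2, a feedback inhibitor of cytokine signalling, had 4.56 and 2.40 kb in DM, against 0 and 0 kb in WT (limma adjusted p = 0.00232), and 0.2 and 0.633 kb in Flt3-ITD cells and no peak in Npm1c cells. Bcl6, a repressor gene, had 4.77 and 3.42 kb in DM, against 1.68 and 1.61 kb in WT (log2 change 1.08 ± 0.19; limma adjusted p = 0.0137), and Mcl1, a survival gene, rose too. Cish, Pim1 and Socs1, other STAT5 targets, did not pass, with log2 changes of -0.12 to 0.25. Fewer genes of this list rose when either WT library was left out. Some fell without DM replicate 1, a fit in which falls were also more frequent over all genes tested. Of 11 MAPK feedback genes Spry1 and Dusp5 rose and Spry2 and Spred1 fell. Spry2, an inhibitor of receptor signalling, had 0.69 and 0 kb in DM, against 2.06 and 2.44 kb in WT (log2 change -1.83 ± 0.37; limma adjusted p = 0.0209). None of the 11 was called without WT replicate 1 or without WT replicate 2.

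Of 20 AP-1 and immediate early genes, which respond quickly to signals and to cell handling, 6 rose and 0 fell (median log2 change 0.39). Fos had 6.57 and 6.84 kb in DM, against 3.09 and 3.50 kb in WT (log2 change 0.93 ± 0.13; limma adjusted p = 0.00608). Zfp36, whose product destabilises cytokine transcripts, had 13.5 and 11.9 kb in DM, against 6.81 and 6.44 kb in WT (log2 change 0.89 ± 0.16; limma adjusted p = 0.0136). Atf3, Nr4a1, Fosb and Jun rose too. Rises in this list numbered 0 without WT replicate 1 and 2 without WT replicate 2, and the part of cell handling was not tested.

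Of 15 interferon genes 3 rose and 0 fell. Ifitm2, a membrane restriction factor gene, had 5.00 and 3.64 kb in DM, against 0.219 and 0.263 kb in WT (log2 change 2.69 ± 0.20; limma adjusted p = 0.000885). Irf5, an inflammatory factor gene, had 5.97 and 3.74 kb in DM, against 0.22 and 0.527 kb in WT (log2 change 2.61 ± 0.46; limma adjusted p = 0.0142), called in 1 of the 4 fits that left out a library. Ifitm1 rose too, while Ifit2 and Rsad2, classical induced genes, did not pass, with log2 changes of -0.74 and -0.53. After centring 7 of the 15 rose and 4 fell, against 11.4% and 11.2% of all genes tested. Of 26 leukaemia-associated genes 5 rose and 2 fell. The 2 falls, Trib2 and Prdm16, are also in the stem and progenitor list, and Cd33 is also in the granule list. Bcl2, a survival gene, had 9.47 and 4.08 kb in DM, against 0.977 and 1.23 kb in WT (log2 change 2.08 ± 0.41; limma adjusted p = 0.0189), with 6 gained regions, and stood in 1 of the 4 fits. Tet2, Dot1l, Cd33 and Lmo1 rose too. No gene of this list rose without WT replicate 1 or without WT replicate 2, and 8 rose without DM replicate 2. Myc had 3.54 and 2.57 kb in DM and 2.95 and 3.03 kb in WT (log2 change 0.01 ± 0.16; limma adjusted p = 1.00).

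Of the 12 largest falls, 8 were in no list. Bmp1, a gene of a collagen-processing protease, had 0 and 0 kb in DM, against 5.85 and 6.24 kb in WT (limma adjusted p = 0.00377), and the window of Phyhip overlaps it. Mgll, a lipase gene, had 0.202 and 0 kb in DM, against 6.71 and 6.64 kb in WT (log2 change -3.60 ± 0.39; limma adjusted p = 0.0027). Paqr9, Cldn13, Rbm20, Col5a1 and Mylk3 had no peak in either DM library, against 4.02 to 5.28 kb in the WT libraries. All 8 of these genes had peaks in both Npm1c and both Flt3-ITD libraries.

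The other marks were not used to choose regions. H3K4me1, a mark of enhancers, was present at lost regions in both DM libraries at 41.0%, against 66.0% in both WT libraries. At gained regions the shares were 70.7% in DM and 71.1% in WT. H3K4me3, a mark of promoters, was present at lost regions in both DM libraries at 20.0%, against 46.6% in WT, and at gained regions at 69.2% in DM, against 42.6% in WT. By the rule of both libraries against neither, 23.3% of lost regions also lost H3K4me1, and 4.11% of gained regions also gained it. H3K4me1 was gained at 4.2% of mixed and 3.31% of shared regions, and 3.8% of gained regions lost it. Gain of H3K4me1 was no more frequent at gained than at mixed regions. Mixed regions are no neutral baseline, as 7522 of 13074 had an H3K27ac peak in DM replicate 1 alone. Loss of H3K4me1 stood at 6.64% of mixed and 2.19% of shared regions. For H3K4me3, 25% of lost regions lost it and 21.4% of gained regions gained it. H3K4me3 was gained at 12.8% of mixed and 1.69% of shared regions, and lost at 3.6% and 0.509%. At 3 of the 8 lost regions with the most covered bases, those in Aqp1, Lmo2 and Dach1, H3K4me1 was present in both DM libraries and in neither WT library, the opposite of H3K27ac. At 3 others, those in Acmsd, Phyhip and Col5a1, it was present in both WT libraries and in neither DM library, and these regions were picked after their values were seen. The Aqp1 region held 1.00 and 1.37 kb of H3K4me1 in DM, against no peak in WT. The H3K4me1 lists were shorter in DM, with 104752 and 109354 peaks, against 122855 and 131179 in WT, and the part of list length was not tested.

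**Figure D5:**
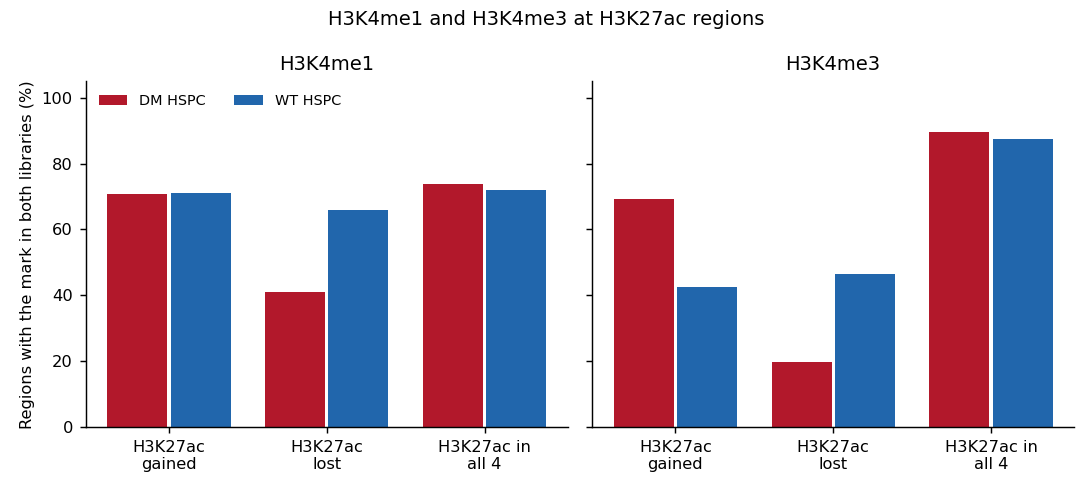
Share of H3K27ac regions (vertical axis, %) with H3K4me1 (left) or H3K4me3 (right) in both libraries of DM (red) and of WT (blue), for gained, lost and 4-library regions. H3K4me1 bars are nearly level at gained regions, at 70.7% in DM and 71.1% in WT, and at lost regions the DM bar is lower than the WT bar for both marks.

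By gene, 332 of 17381 rose (1.91%) and 2819 fell (16.2%) for H3K4me1 in DM, and the median H3K4me1 change of genes tested for both marks was -0.24 on the log2 scale. Among genes whose H3K27ac fell, 384 of 822 (46.7%) fell for H3K4me1 too, against 18.2% of all genes tested for both marks. Among genes whose H3K27ac rose, 34 of 945 (3.60%) rose for H3K4me1, against 0.985% of all. After centring, 1028 genes rose (5.91%) and 1441 fell (8.29%) for H3K4me1, and the shares were 30.5% of the H3K27ac falls and 17.5% of the rises, against 8.43% and 4.53% of all genes tested for both marks. Erythroid membrane genes had 12 H3K4me1 falls in 18. Kel had 0 and 0 kb of H3K4me1 in DM, against 7.0 and 8.38 kb in WT (limma adjusted p = 0.000718), and Cd74 had 5.00 and 5.00 kb in DM, against 1.00 and 1.00 kb in WT (limma adjusted p = 0.00906). Hoxa9 did not pass for H3K4me1, with 6.00 and 6.00 kb in DM and 8.22 and 7.0 kb in WT. For H3K4me3, 721 of 16138 genes rose (4.47%) and 597 fell (3.7%), and after centring 347 rose (2.15%) and 440 fell (2.73%). Without centring it rose at 116 of 928 genes whose H3K27ac rose (12.5%), against 4.57% of all. It fell at 80 of 802 whose H3K27ac fell (9.98%), against 3.15% of all. With centring these counts were 87 (9.375%) and 66 (8.23%), against 1.94% and 1.64% of all. Peaks of fixed width let replicates tie, and H3K4me3 calls without centring did not follow the size of the change. Cd83, Csf1r and Cd33 each had 2 and 2 kb of H3K4me3 in DM and 1 and 1 kb in WT. Their limma adjusted p was 1.16e-15, 1.16e-14 and 0.137 without centring and 0.402 each with it. Fixed width affects centring too. The H3K4me3 library medians on the log2 scale were 10.55 in DM replicate 1 and WT replicate 1, against 11.29 in DM replicate 2 and WT replicate 2. Centring on them sets tied replicates of a group apart, so the centred H3K4me3 calls are no firmer.

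The single mutants and neutrophils were set beside the same regions, without a test. Of lost regions 81.5% had a peak in both Npm1c libraries, 32.6% in both Flt3-ITD libraries and 8.98% in both neutrophil libraries. Of gained regions 23.5% had one in both Npm1c, 34.8% in both Flt3-ITD and 26.6% in both neutrophil libraries. Regions with a peak in all 4 DM and WT libraries had one in both Npm1c libraries at 98.5% and in both Flt3-ITD libraries at 98.2%. In both neutrophil libraries they had one at 85.5%. Of mixed regions 32.1% had one in both Npm1c, 21.5% in both Flt3-ITD and 25.1% in both neutrophil libraries. The neutrophil share at gained regions was thus near that at mixed regions. Npm1c lists covered 23.4 and 23.9 Mb and Flt3-ITD lists 16.6 and 18.3 Mb, and the part of covered length in these shares was not tested.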

How the data were processed

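Chromatin immunoprecipitation reads were aligned with Bowtie2 2.1.0 to mm10, with Picard, MACS2 and HOMER also named, per the submitters' processing notes; no header records their roles or settings. The deposited files are 3-column lists of peak positions (unit: peak coordinates, other than a count or signal), 1 per library, from which the authors' read depth cannot be had, so depth and its precision are unknown. Such lists depend on each library's depth and threshold, which moves covered length.

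Groups came from sample titles. Peaks of 2 DM and 2 WT H3K27ac libraries were merged (overlap of at least 1 bp) and classed with Python 3.11.15, NumPy 2.4.6 and pandas 2.3.3. The permutation test over libraries used SciPy 1.17.1, and figures matplotlib 3.10.9. Covered bp was summed over windows of 21887 protein-coding genes (RefSeq, GRCm38.p6; 10 kb added on either side, 5 kb for H3K4me3). Genes with coverage in at least 2 of 10 libraries of a mark were tested on log2(bp + 500) with limma 3.58.1 (R 4.3.3), 5 groups sharing one spread, at a Benjamini-Hochberg adjusted p of 0.05, without centring. The steps were tested on simulated data. The design text calls the libraries of a group biological replicates but ties them to no animals. The p-values measure a spread between libraries pooled over the 5 groups, which is not the spread of DM alone. A fit that left out a library held no spread within the group of that library.

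Named genes were the 12 largest rises and the 12 largest falls among called genes with the same sign in every DM to WT pair of libraries, up to 5 genes of each list, called ones first, and Npm1 and Flt3. Regions named were the 8 gained and 8 lost ones with the most covered bp, and further list genes were named after their values were seen. Members, lists and promoters were chosen with earlier results of these data known. Lists share genes, among them Irf8, Csf1r, Flt3, Nr4a1 and Gata2, so the counts of different lists are not independent. Alternatives were median centring, promoters wholly inside a region (added after seeing the data), other windows, pseudocounts, filters and list lengths, the replicate block and leaving out each library. The 5 input samples were not used.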

Additional observations from a re-analysis of the deposited data

How the results depend on the processing

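Median centring gave 1552 rises and 1523 falls for H3K27ac, 1028 and 1441 for H3K4me1, and 347 and 440 for H3K4me3. With only the 4 DM and WT libraries in the fit, 668 genes rose and 718 fell for H3K27ac. Of the genes called with all 10 libraries, 1012 were called the same way, and 16 of the 74 named calls did not pass. With the replicate number as a block (replicate block), 743 genes rose and 640 fell for H3K27ac. Same-numbered DM and WT libraries did not deviate together (r = 0.02). Over all pairs of groups r ran from -0.13 (DM and Npm1c) to 0.28 (DM and Flt3-ITD). The numbers were not taken to pair samples. Centring together with the replicate block, chosen after seeing the data, gave 1517 rises and 1457 falls. Leaving out 1 library gave 86 to 2183 rises and 128 to 1489 falls for H3K27ac, and with centring 606 to 1376 rises. For H3K4me1 it gave 219 to 240 rises and 1310 to 1888 falls, and for H3K4me3 502 to 1060 falls. With peaks of at least 500 bp, 1430 regions were gained and 1572 lost, and with peaks within 500 bp merged, 2802 were gained and 2554 lost. Leaving out 1 library gave 4224 to 11493 gained regions and 4045 to 5422 lost. The difference in covered length was -1.77 Mb without DM replicate 1, the reverse of its sign with all 4 libraries, and 5.08 Mb without DM replicate 2. The cause of these differences was not tested. Of 74 named genes with a call, none changed direction under 18 settings (Hoxa6 had no value with gene spans alone). Those with the largest rises and falls were chosen for the same sign in every DM to WT pair of libraries. Leaving out a library could therefore not reverse them. All 74 were counted because they were called, so the lack of reversals is a weak test of their direction. Of the 74, 34 were called whichever library was left out. Peak lists without depth limit what a missing peak can show.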

Other observations

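The DM replicates differed along most genes with a peak in both. Of 12021 such genes, DM replicate 2 had at least the coverage of DM replicate 1 at 1087 (9.04%), and the median ratio of replicate 1 to replicate 2 was 1.30. In the AP-1 and immediate early list it did so at 7 of 20 genes, and the median ratio there was 1.11. This list was picked with the values known, as the lowest of 21 lists by the ratio of summed coverage. That ratio was 1.12 there, 1.21 in the mast, basophil and eosinophil list and 1.23 in the MAPK feedback list. It was 1.41 over all genes tested and ran up to 1.87 in the dendritic list. No test was made of the difference between the DM replicates.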
